A study of Mus musculus with 2 samples.

Results

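The Sox genes Sox2, Sox4, Sox7, Sox9, Sox10, Sox11, Sox17 and Sox18 were followed through the cell lineages of the adult mouse vomeronasal organ (VNO), the chemosensory organ at the base of the nasal septum. They were taken by name from the 32285 genes counted, of which 20 are Sox genes or Sry, and their levels were described in 5 lineages: 2821 epithelial, 1352 neural, 74 ensheathing, 782 endothelial and 553 stromal cells. The VNOs came from wild-type C57BL/6J male mice at postnatal day 60 with no treatment. Tissue of 5 mice in all was dissociated, frozen and thawed before droplet capture, and it gave 2 libraries. No source used here says how the mice were split between them, so tests between cell types measured the spread between 2 libraries, which may be technical. Of 24084 barcodes, 10592 passed the filters, 5694 in library 1 and 4898 in library 2, at a median of 6668 and 6650 unique molecules (UMIs) a cell.

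Sox proteins are transcription factors that bind DNA through an HMG box related to that of Sry, and they fall into groups by sequence. The SoxB1 factor Sox2 is known from neural progenitors and from the supporting cells of sensory epithelia, and the SoxC factors Sox4 and Sox11 from neurons that are differentiating. The SoxE factors Sox9 and Sox10 are known from cartilage, glia and glands, and the SoxF factors Sox7, Sox17 and Sox18 from the endothelium of blood and lymph vessels.

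Cells were grouped by clusters that were built without any Sox gene and without the listed target genes, and each cluster was named only from other marker genes. Levels are given in CPM, the UMIs of a gene per 1000000 UMIs summed over the cells of a group in a library. Differences are log2 differences ± SE from a fit of these sums with edgeR over 17402 genes, with p-values adjusted over all of them and a call at an adjusted p under 0.05. A further 2034 cells in 10 of 46 clusters were left unnamed and entered no comparison. Among them were a cluster of 592 cells with 4 of 7 tuft-cell markers raised 4-fold and a cluster of 150 cells with 5 of 5 cilium markers. The epithelial lineage thus held no cluster of either kind, and its levels and shares lack them. Other unnamed clusters had neural markers raised. One of 291 cells had 2 of 7 markers of mature neurons, and one of 53 cells had 3 of 5 immature-neuron markers. A cluster of 67 cells had 2 of 5 progenitor and 5 of 5 proliferation markers. Neural levels and shares do not include these cells. The clusters were drawn from other genes of the same cells, so the groups were not independent of the counts tested. In a test of the 5 lineages together 79.5% of all genes were called. Of all tests, 39% were called over the pairs of lineages, 21.8% over those of cell types and 4.57% over those of finer types. Each count of Sox genes thus stands beside the share of all genes called.

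Promoter sequence is shown for Sox2, Sox4 and Sox11, which changed along the neural stages, as did Sox9, which had no entry. It was read from RefSeq on GRCm38.p6, from 250 bases before to 50 bases after the start of the gene as RefSeq gives it, and 3 of the 8 genes had an entry. Capitals mark E-boxes, CANNTG, the motif read by proneural factors such as Neurog1 and Neurod1, which mark precursor-like cells here. The windows are chr3:34649745-34650044 on the plus strand for Sox2, chr13:28953650-28953949 on the minus strand for Sox4 and chr12:27342669-27342968 on the minus strand for Sox11. For Sox2 and Sox11 they lie wholly upstream of the gene positions given below, which come from another annotation with a different start.
Sox2: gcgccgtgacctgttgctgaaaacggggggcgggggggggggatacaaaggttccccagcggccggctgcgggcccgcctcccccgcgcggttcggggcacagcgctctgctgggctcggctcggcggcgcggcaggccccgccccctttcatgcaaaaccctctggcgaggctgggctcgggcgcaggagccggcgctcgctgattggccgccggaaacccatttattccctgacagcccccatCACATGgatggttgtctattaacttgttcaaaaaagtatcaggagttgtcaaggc
Sox4: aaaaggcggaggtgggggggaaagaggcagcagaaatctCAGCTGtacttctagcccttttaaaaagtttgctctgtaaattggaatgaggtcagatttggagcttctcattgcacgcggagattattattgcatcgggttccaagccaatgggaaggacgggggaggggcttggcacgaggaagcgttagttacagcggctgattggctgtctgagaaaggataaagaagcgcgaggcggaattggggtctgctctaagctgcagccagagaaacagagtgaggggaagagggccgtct
Sox11: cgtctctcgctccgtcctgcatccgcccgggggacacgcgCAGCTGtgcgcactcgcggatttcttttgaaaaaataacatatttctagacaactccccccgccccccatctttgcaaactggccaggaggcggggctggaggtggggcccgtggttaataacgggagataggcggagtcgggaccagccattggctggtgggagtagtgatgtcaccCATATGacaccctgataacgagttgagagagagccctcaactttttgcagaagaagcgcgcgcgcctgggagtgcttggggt
The Sox2 window held 1 E-box, the Sox4 window 1 and the Sox11 window 2. CANNTG was present in 72.3% of 32851 promoter windows of the same length, so its presence here was common. ACAAAG, a motif bound by Sox proteins, was found in the Sox2 window and in neither of the others, against 18.7% of all windows on both strands. ACAAT, another Sox motif, was in none of the 3 windows and in 31.02% of all.

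All 8 genes differed among the 5 lineages in a joint test, as did 79.5% of all genes tested. In the 10 pairs of lineages 48 of 80 tests of the 8 genes were called, against 39% of all tests. Sox2, Sox9 and Sox4 were highest in epithelial cells, Sox11 in neural cells, Sox10 in ensheathing cells and the 3 SoxF genes in endothelial cells. Summed over lineages, the SoxF genes thus shared a lineage, whereas the SoxC and SoxE genes each had their highest levels in different ones. Sox4 was present in all 5 lineages. By mean CPM over cell types, however, Sox4 and Sox11 were both highest in precursor-like cells. Sox4 did not differ there from progenitor-like cells beyond its spread, nor Sox11 from dividing or late precursor-like cells. The lead of epithelial over neural cells in Sox4 rested on the scaling, as given below. Between the epithelial and neural lineages 7 of 8 genes were called (64.7% of all genes), between epithelial and endothelial 7 (43.3%), between epithelial and stromal 5 (41.2%) and between epithelial and ensheathing 4 (22.8%). For neural cells 4 genes were called against ensheathing (34%), 5 against endothelial (59.1%) and 6 against stromal cells (58%). The endothelial lineage differed from the ensheathing lineage in 5 genes (19.9%) and from the stromal lineage in 4 (31.9%), and between ensheathing and stromal cells 1 gene, Sox10, was called (15.2%).

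**Figure D1:**
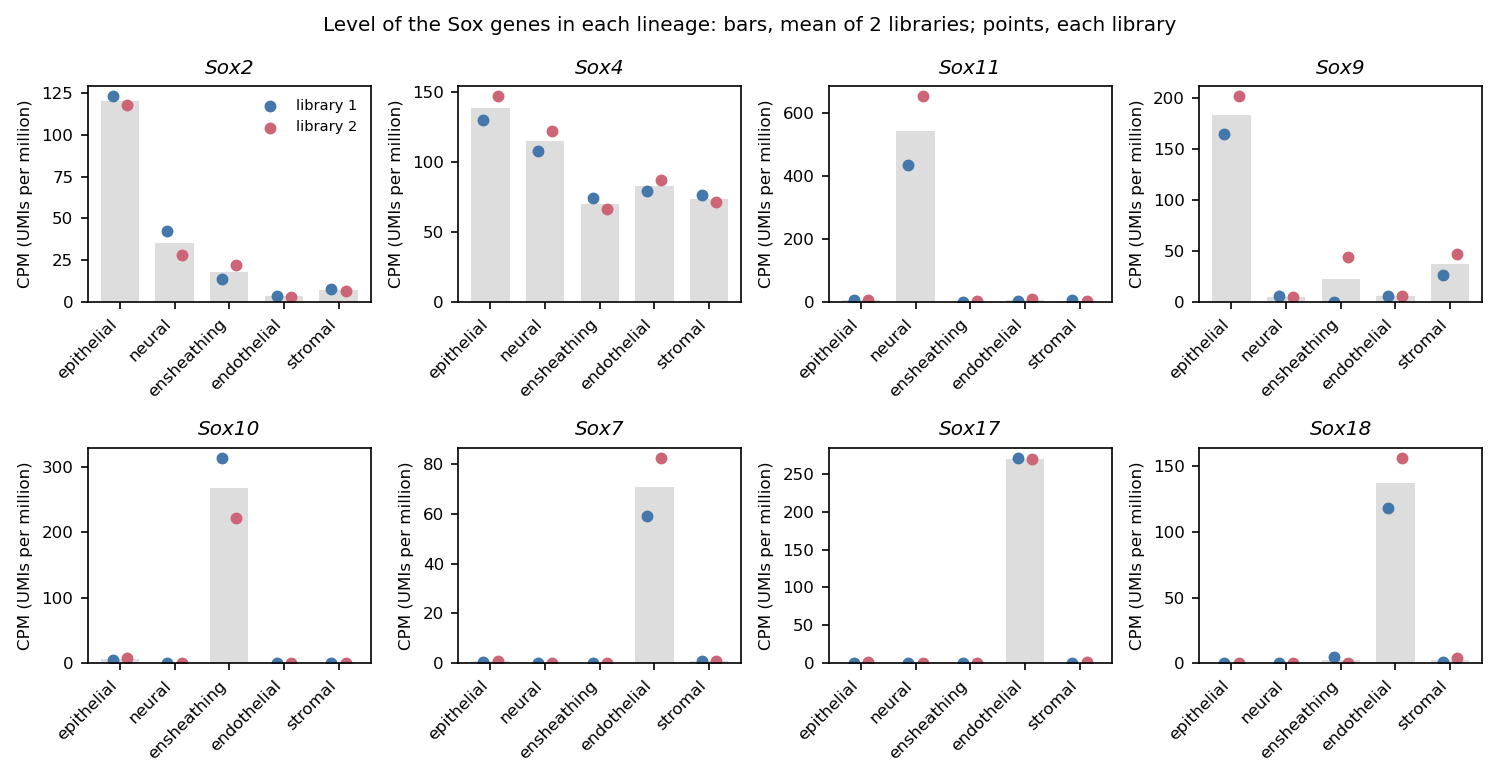
CPM of the 8 Sox genes in each of the 5 lineages on linear axes that start at 0, with bars for the mean of 2 libraries and points for library 1 and library 2. Sox11 stands out in neural cells (435 and 654 CPM), Sox10 in ensheathing cells and Sox7, Sox17 and Sox18 in endothelial cells, while Sox4 lies between 66.4 and 147 CPM in all 5 lineages.

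Sox2, on chromosome 3 (mm10, 34650405 to 34652461, plus strand, 1 exon), lies inside the noncoding gene Sox2ot on the same strand, so UMIs of the 2 genes could be confused. Its level was 123 CPM in library 1 and 118 CPM in library 2 in epithelial cells. It was 42.4 and 28.2 CPM in neural cells and 13.8 and 22.1 CPM in ensheathing cells. Epithelial cells thus held the highest Sox2 level, and the libraries of neighbouring lineages did not overlap. Stromal cells had 7.56 and 6.32 CPM and endothelial cells 3.41 and 3.04 CPM. The endothelial values lay within those of macrophage-like cells, which should lack Sox2 and gave 5.01 and 2.83 CPM, and were read as background. The step from epithelial to neural cells was 2.43 ± 0.18 (adjusted p = 3.01e-08). The steps from neural to ensheathing (1.02 ± 0.48, adjusted p = 0.126) and from ensheathing to stromal cells (1.10 ± 0.63, adjusted p = 0.327) did not pass. Stromal cells exceeded endothelial cells by 1.14 ± 0.46 without a call (adjusted p = 0.0785), which became one when the library number was a replicate block (adjusted p = 0.0375).

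Sox4 (chromosome 13, 28948919 to 28953713, minus strand, 1 exon), a SoxC factor, varied least among the lineages. Epithelial cells had 130 and 147 CPM, neural cells 108 and 122 CPM, and endothelial cells 79.1 and 86.8 CPM. Stromal cells had 76.0 and 71.1 CPM and ensheathing cells 73.8 and 66.4 CPM, the latter 2 overlapping. Every one of these levels was above the 13.9 and 17.8 CPM of macrophage-like cells. Epithelial cells exceeded neural cells by 0.94 ± 0.12 (adjusted p = 6.62e-06). This value rested on the scaling: with each sum scaled to its total UMIs and no TMM factor, the median of all genes between these lineages moved by -0.66, and the Sox4 difference was 0.26 ± 0.12 (adjusted p = 0.0554). Neural cells exceeded endothelial cells by 0.26 ± 0.13, which was not called (adjusted p = 0.0844) but was with the replicate block (adjusted p = 0.0052). Endothelial against stromal cells and stromal against ensheathing cells did not pass (adjusted p = 0.449 and 0.381).

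Sox11 (chromosome 12, 27334264 to 27342574, minus strand, 1 exon), the other SoxC gene, was at 435 CPM in library 1 and 654 CPM in library 2 in neural cells. Endothelial, epithelial, stromal and ensheathing cells lay under 10 CPM in each library, with 37, 208, 19 and 1 UMIs in all. Of all Sox11 UMIs 87.3% were in neural cells. Neural cells exceeded endothelial cells, the next in order, by 6.16 ± 0.31 (adjusted p = 5.14e-10). The low lineages could not be ordered: their libraries overlapped and no neighbours passed (adjusted p from 0.119 to 0.749). In fibroblast-like cells 14 of 18 Sox11 UMIs were in 1 cell, in gland-like cells 12 of 22, and in non-sensory-like cells 33 of 55 were in 1 cell that was called a doublet. Epithelial cells exceeded stromal cells by 0.96 ± 0.47 (adjusted p = 0.119), a difference called with the replicate block (adjusted p = 0.0288) and turned round to -0.76 ± 0.29 at a mitochondrial limit of 10%.

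Sox9 (chromosome 11, 112782224 to 112787760, plus strand, 3 exons), which directs cartilage formation and marks several epithelial stem and duct cells, was at 165 and 202 CPM in epithelial cells and at 26.7 and 46.9 CPM in stromal cells. Endothelial cells had 5.68 and 6.08 CPM and neural cells 5.66 and 4.77 CPM, close to the 3.34 and 4.25 CPM of macrophage-like cells. Epithelial cells thus stood above stromal cells by 2.81 ± 0.27 (adjusted p = 1.03e-06), and stromal above endothelial cells by 2.62 ± 0.41 (adjusted p = 0.00015). In ensheathing cells all 12 Sox9 UMIs, in 5 cells, were in library 2 (0 and 44.2 CPM). A called difference of neural against ensheathing cells (-2.14 ± 0.76, adjusted p = 0.044) rested on that library, since without library 2 the value was 3.95. Ensheathing cells exceeded endothelial cells by 1.78 ± 0.78 without a call (adjusted p = 0.143), and with one under the replicate block (adjusted p = 0.0329).

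Sox10 (chromosome 15, 79154908 to 79165240, minus strand, up to 5 exons), which specifies glia from the neural crest, was at 314 and 221 CPM in ensheathing cells, the glia that wrap vomeronasal axons. It was seen in 55 of 74 of these cells (74.3%, exact 95% interval 62.8 to 83.8%), and in 58.3% of the cells that could be thinned to 3000 UMIs. Of 1643 macrophage-like cells none held a Sox10 UMI. Epithelial cells had 5.82 and 7.85 CPM, and 230 of their 231 UMIs were in gland-like cells. Ensheathing cells exceeded epithelial cells by 4.54 ± 0.31 (adjusted p = 3.90e-07). No Sox10 UMI was found in 782 endothelial cells, so that up to 0.384% of such cells could hold one at this depth, nor in 553 stromal cells (up to 0.542%). With a floor of 3 UMIs over the group, set against the measured ensheathing level of 262 CPM, Sox10 was at least 490-fold lower in endothelial and 386-fold lower in stromal cells. The counting error of the ensheathing level (exact 95% interval 219 to 312 CPM) is not in these folds. These floors and intervals cover counting error only.

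The 3 SoxF genes were almost confined to endothelial cells, which held 92.4% of all Sox7, 95.6% of all Sox17 and 96.5% of all Sox18 UMIs of the cells that passed the filters. Sox17 (chromosome 1, 4490931 to 4497354, minus strand) was at 271 and 269 CPM in endothelial cells, Sox18 (chromosome 2, 181669836 to 181671640, minus strand) at 118 and 156 CPM, and Sox7 (chromosome 14, 63943673 to 63950732, plus strand) at 59.0 and 82.5 CPM. The next lineage in order was the stromal one for each of them, below endothelial cells by 8.16 ± 0.58 for Sox17 (adjusted p = 1.46e-07), 6.23 ± 0.40 for Sox7 (adjusted p = 1.11e-07) and 5.88 ± 0.33 for Sox18 (adjusted p = 5.5e-09). Sox7 had no UMI in 1352 neural cells, by the same floor at least 388-fold below the measured endothelial level, and none in 74 ensheathing cells, at least 11.6-fold lower. Sox17 had none in ensheathing cells, at least 43.9-fold lower. The 9 endothelial markers that named the lineage, Pecam1 and Cdh5 among them, summed to 7768 and 7337 CPM there and to between 18.7 and 250 CPM in epithelial, neural and stromal cells. In ensheathing cells they summed to 1933 and 2142 CPM, from 9 of 9 markers in library 1 and 3 of 9 in library 2, and their part in the results for ensheathing cells was not tested, although Sox7 and Sox17 were at 0 there.

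Outside the endothelium a few differences of SoxF genes were called on a handful of UMIs. Sox17 had 33 UMIs in 11 epithelial cells, of which 13 were in 1 sustentacular-like cell and 9 in 1 gland-like cell. These cells showed 7 and 6 of the 9 endothelial markers, and neither was called a doublet. Sox17 exceeded its neural level in epithelial cells by 3.40 ± 1.18 (adjusted p = 0.0223), its basal-like level in sustentacular-like cells by 3.25 ± 1.19 (adjusted p = 0.0407) and in gland-like cells by 3.36 ± 1.12 (adjusted p = 0.022), and DESeq2 called none of these 3 differences (adjusted p = 0.123, 0.713 and 0.69). Sox18 in stromal cells had 10 UMIs, 7 of them in 1 mural-like cell with 9 of 9 endothelial and 3 of 8 mural markers, and the difference of mural-like from fibroblast-like cells (5.32 ± 1.26, adjusted p = 0.00874, the only one of the 8 genes called there, against 6.92% of all genes) was -0.49 without library 2. Sox7 differed in kind: its 28 epithelial UMIs were in 28 cells, 16 of them basal-like. It exceeded its neural level there by 5.65 ± 0.95 (adjusted p = 0.000221), and sustentacular-like cells, with 1 UMI, were below basal-like cells by 2.81 ± 1.04 (adjusted p = 0.0431), a call lost in 4 of the alternative settings.

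The neural lineage was followed through 8 cell types that were ordered by the markers that named them, from progenitor-like cells (Kit and Hes6 among their markers) through precursor-like (Neurog1, Neurod1) and immature-like (Gap43) to mature vomeronasal sensory neuron (VSN)-like cells (Omp). No time was measured. Sox2 fell from progenitor-like to precursor-like cells and again to immature-like cells, Sox11 rose into precursor-like cells and fell at both later steps, and Sox4 fell at the same 2 later steps. From progenitor-like to precursor-like cells 3 of the 8 genes were called (13.9% of all genes), from precursor-like to immature-like cells 3 (15.5%) and from immature-like to mature VSN-like cells 2 (29.9%). Over the 6 pairs of cell types compared in the neural, epithelial and stromal lineages 18 of 48 tests of the 8 genes were called, against 21.8% of all tests. Comparisons of the finer types were added after the clusters had been seen, and in these 12 comparisons 12 of 96 tests were called, against 4.57% of all tests. Along the neural order 2 genes were called from progenitor-like to dividing precursor-like cells (5.17% of all genes), 1 from there to precursor-like cells (4.71%) and 1 from there to late precursor-like cells (3.21%).

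Sox2 was at 409 and 414 CPM in 42 progenitor-like cells and at 271 and 247 CPM in 37 dividing precursor-like cells. It was at 30.96 and 46.3 CPM in 87 precursor-like cells, 7.19 and 5.28 CPM in 133 late precursor-like cells and under 4 CPM in both groups of immature-like cells. In each step of this order up to late precursor-like cells the libraries of neighbouring groups did not overlap. Sox2 fell by 0.79 on the log2 scale from progenitor-like to dividing precursor-like cells (SE 0.20, adjusted p = 0.012), by 2.83 from there to precursor-like cells (SE 0.28, adjusted p = 6.75e-09) and by 2.51 to late precursor-like cells (SE 0.51, adjusted p = 0.00219). Taken over the whole step, precursor-like cells were below progenitor-like cells by 3.55 ± 0.25 (adjusted p = 8.87e-12) and immature-like below precursor-like cells by 3.73 ± 0.48 (adjusted p = 7.68e-07). In mature cells it was at 2.35 and 2.35 CPM in the V1R-led type and 5.24 and 8.99 CPM in the basal type. This difference of 1.40 ± 0.51 was not called by edgeR (adjusted p = 0.0876) but was by DESeq2 (adjusted p = 0.0279). It rested on 19 UMIs in 17 V1R-led and 13 UMIs in 9 basal cells, 4 of the latter in 1 cell. These levels were near the 3.93 CPM of macrophage-like cells, the background. Sox9 went with Sox2 at the start: it was at 55.0 and 21.8 CPM in progenitor-like cells (41 UMIs in 15 of 42 cells), 2 UMIs remained in precursor-like cells, and it fell by 4.14 (SE 0.98, adjusted p = 0.00331), which in cells thinned to 3000 UMIs was not called (adjusted p = 0.588). With the replicate block Sox9 fell already in dividing precursor-like cells (adjusted p = 0.031, against 0.0814 without the block).

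Sox11 was at 476 and 606 CPM in progenitor-like cells and at 1858 and 2121 CPM in dividing precursor-like cells. Precursor-like cells had 1877 and 2810 CPM and late precursor-like cells 1712 and 2493 CPM. Each of these 3 types thus stood above progenitor-like cells in each library, and library 2 was the higher one throughout. Apical immature-like cells had 558 and 888 CPM and basal immature-like cells 843 and 1438 CPM, overlapping groups, whereas V1R-led mature VSN-like cells had 24.4 and 39.3 CPM and basal mature VSN-like cells 18.9 and 17.98 CPM. The rise came at the dividing precursor-like type (1.74 ± 0.32, adjusted p = 0.000572), with no further step to precursor-like (0.20 ± 0.30, adjusted p = 0.923) or late precursor-like cells (-0.07 ± 0.30, adjusted p = 1). Over all immature-like cells Sox11 fell by 1.10 from the precursor-like level (SE 0.31, adjusted p = 0.0115), a call that DESeq2 did not make (adjusted p = 0.125), and it fell by 4.84 to mature VSN-like cells (SE 0.36, adjusted p = 5.68e-12).

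Sox11 was also seen in nearly all young cells: in 42 of 42 progenitor-like, 37 of 37 dividing precursor-like, 86 of 87 precursor-like, 131 of 133 late precursor-like, 177 of 181 apical immature-like and 163 of 167 basal immature-like cells. In mature cells a UMI was found in 17.4% of the V1R-led type (exact 95% interval 14.5 to 20.7%) and 19.3% of the basal type (12.3 to 27.9%). These were deeper cells than any immature type, at medians of 13508 and 17162 UMIs, and after thinning to 3000 UMIs the shares were 6.91% and 5.56%. Macrophage-like cells, at a median of 4450 UMIs, gave 1.03%, and 0.926% after thinning. The share with Sox11 in mature neurons was therefore low but above this background.

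Basal and apical neurons were set against each other at the immature and mature stages. Of the 167 basal immature-like cells 60 formed a cluster in which Gap43 was not raised 4-fold, whereas it was in each apical cluster. The groups may thus differ in stage, and the part of this in the differences below was not tested. Sox11 was higher in basal than apical immature-like cells by 0.71 ± 0.31, which was not called (adjusted p = 0.324). With the library number as a replicate block it was (0.70 ± 0.17, adjusted p = 0.005). Its fall from immature-like to mature cells was larger in the basal than in the V1R-led branch by 1.61 ± 0.58, again without a call (adjusted p = 0.24) but with one under the block (1.60 ± 0.43, adjusted p = 0.0304). Without the block edgeR thus called 0 of the 8 genes between the immature types (3.1% of all genes, 1 of the 8 at an unadjusted p under 0.05), 0 between the mature types (7.98%, 2 of the 8 unadjusted) and 0 for the difference in maturation (0.925%, 1 of the 8 unadjusted). DESeq2 called Sox2 between the mature types, on the few UMIs given above, and none in the other comparisons. Sox4 was alike within its spread, at 96.5 and 115 CPM in apical and 97.8 and 124 CPM in basal immature-like cells (0.12 ± 0.25, adjusted p = 1).

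Sox4 was at 347 and 429 CPM in progenitor-like cells, 225 and 282 CPM in dividing precursor-like cells and 402 and 411 CPM in precursor-like cells. Late precursor-like cells had 254 and 268 CPM. Progenitor-like and precursor-like cells thus lay above the dividing and late types in each library. Sox4 differed between precursor-like and progenitor-like cells by -0.03 ± 0.21 (adjusted p = 1), and none of the finer steps was called without a block. With the block Sox4 fell into dividing precursor-like cells by 0.76 (SE 0.20, adjusted p = 0.01), rose from there to precursor-like cells by 0.66 (SE 0.20, adjusted p = 0.0376) and fell to late precursor-like cells by 0.57 (SE 0.17, adjusted p = 0.046). It fell by 1.67 from precursor-like to immature-like cells (SE 0.21, adjusted p = 6.08e-07) and by 1.06 from there to mature VSN-like cells (SE 0.21, adjusted p = 0.000137), where it was at 43.2 and 55.8 CPM in the V1R-led and 26.2 and 48.3 CPM in the basal type.

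**Figure D2:**
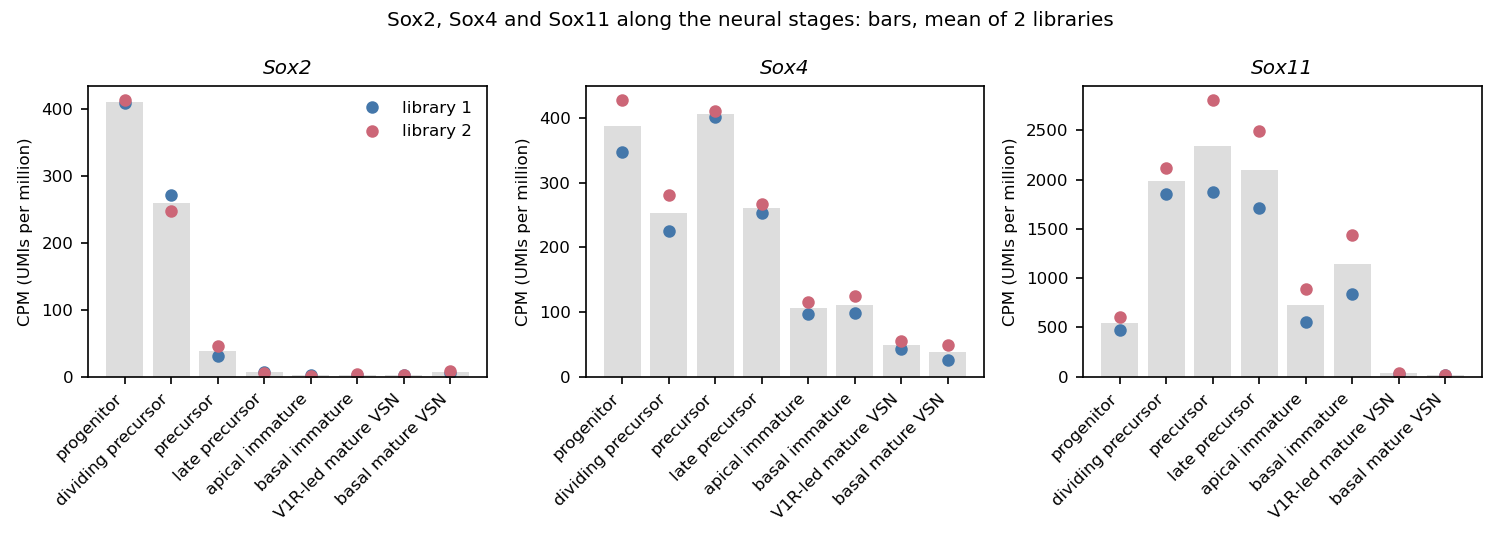
CPM (linear axes from 0) of Sox2, Sox4 and Sox11 in 8 neural cell types in the order of their markers, with bars for the mean of 2 libraries and points for each library. Sox2 is at 409 and 414 CPM in progenitor-like cells and at 8.99 CPM or less from late precursor-like cells on, Sox11 is at 1712 CPM or more in the 3 precursor types and 39.3 CPM or less in mature cells, and Sox4 is lowest in mature cells.

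The same cells often held these genes together. All 37 dividing precursor-like cells had UMIs of both Sox2 and Sox11, as did 40 of 42 progenitor-like cells, 18 of 87 precursor-like cells and 5 of 133 late precursor-like cells. After thinning to 3000 UMIs the share with both was 45.7% in dividing precursor-like and 64.3% in progenitor-like cells. Sox4 and Sox11 were found together in 78 of 87 precursor-like cells (89.7%, and 74.7% thinned) and in 98 of 133 late precursor-like cells. Every precursor-like and late precursor-like cell with a Sox4 UMI, except 1, had a Sox11 UMI. Of the cells without Sox4, 100% of precursor-like and 94.3% of late precursor-like cells had one too, so this says little of pairing.

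Within the epithelium the genes divided the cell types. Sox2 was highest in sustentacular-like cells, the supporting cells of the sensory epithelium, at 452 and 445 CPM. Krt13-led epithelial cells had 134 and 125 CPM, non-sensory-like cells 120 and 101 CPM, basal-like cells 105 and 98.5 CPM and gland-like cells 32.4 and 27.7 CPM. The sustentacular-like level was above that of every other epithelial type in each library. Against basal-like cells, 4 of 8 genes were called in sustentacular-like cells (30.2% of all genes) and 5 of 8 in gland-like cells (34.4%). Sox2 rose in sustentacular-like cells by 1.70 ± 0.16 (adjusted p = 1.76e-10) and fell in gland-like cells by 0.91 (SE 0.17, adjusted p = 4.72e-05). It was seen in 260 of 281 sustentacular-like cells (92.5%, exact 95% interval 88.8 to 95.3%, and 69.1% thinned), against 1.52% of macrophage-like cells. Non-sensory-like (0.15 ± 0.16, adjusted p = 0.816) and Krt13-led cells (0.24 ± 0.17, adjusted p = 0.572) did not differ from basal-like cells beyond their spread.

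Sox9 was highest in basal-like cells. It was at 283 and 333 CPM in basal-like cells and 217 and 277 CPM in non-sensory-like cells, which do not overlap but whose difference was not called (-0.29 ± 0.23, adjusted p = 0.704). Gland-like cells had 93.0 and 97.1 CPM, sustentacular-like cells 59.7 and 110 CPM and Krt13-led cells 40.1 and 57.3 CPM. Relative to basal-like cells Sox9 fell by 2.30 in sustentacular-like cells (SE 0.26, adjusted p = 1.97e-08), by 0.85 in gland-like cells (SE 0.24, adjusted p = 0.00558) and by 2.78 in Krt13-led cells (SE 0.28, adjusted p = 7.11e-09). In sustentacular-like cells Sox2 and Sox9 thus differed from basal-like cells in opposite directions, and in gland-like cells both were lower. It was the only one of the 8 genes called in Krt13-led against basal-like cells (6.33% of all genes), and neither edgeR nor DESeq2 called any in non-sensory-like against basal-like cells (4.96%, 1 of the 8, Sox7, at an unadjusted p under 0.05 in edgeR). Of 2821 epithelial cells 955 held both Sox2 and Sox9 UMIs (33.9%, and 9.98% thinned), 633 Sox2 alone and 734 Sox9 alone. In sustentacular-like cells 89 of the 95 cells with Sox9 also held Sox2, near the share among all such cells (260 of 281).

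Sox10 divided gland-like cells, which make the mucus and lipocalins of the VNO lumen, from the rest of the epithelium. They had 18.9 and 26.4 CPM from 230 UMIs in 141 of 451 cells (31.3%, exact 95% interval 27.01 to 35.8%), whereas 1 UMI was found in 1055 basal-like cells. Sox10 rose by 7.82 ± 0.61 over basal-like cells (adjusted p = 4.27e-09). Gland-like cells were the deepest epithelial type, at a median of 18412 UMIs, and after thinning 8.28% held Sox10, against 0 of 1031 basal-like cells. Of the 141 cells 107 also held Sox9, and 8 of 28 when thinned. Sox4 was lowest in gland-like cells, at 65.0 and 68.4 CPM against 159 and 178 CPM in basal-like cells, and fell by 0.49 (SE 0.19, adjusted p = 0.0415). At a mitochondrial limit of 10% the Sox2, Sox4 and Sox9 differences between gland-like and basal-like cells were -0.26, 0.04 and -0.36 and none passed (adjusted p = 0.231, 0.922 and 0.18), while Sox10 kept its call. Scaling mattered here as well: without TMM the median of all genes moved by -0.83, and Sox2 fell by 1.76, Sox4 by 1.34 and Sox9 by 1.70 in gland-like cells, all called. In sustentacular-like against basal-like cells that median moved by 0.30, and Sox4 was at 0.06 ± 0.19 with TMM (adjusted p = 0.875) and 0.49 ± 0.19 without (adjusted p = 0.0439). Sox11 was below its basal-like level in gland-like cells by 1.39 ± 0.60 without a call (adjusted p = 0.0739), and with one under the block (adjusted p = 0.0262).

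In Krt13-led cells the replicate block added 2 calls, since Sox4 fell by 0.55 (SE 0.15, adjusted p = 0.00694) and Sox11 by 2.85 (SE 0.83, adjusted p = 0.0175) from the basal-like level.

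**Figure D3:**
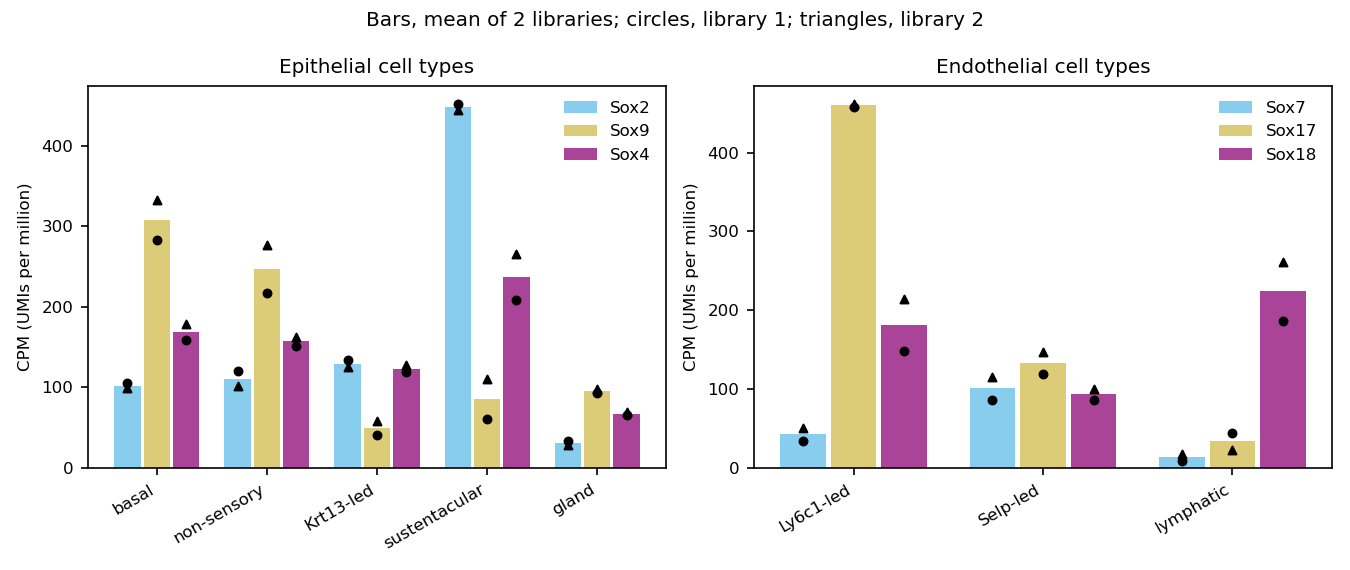
CPM (linear axes from 0) of Sox2, Sox9 and Sox4 in 5 epithelial cell types and of Sox7, Sox17 and Sox18 in 3 endothelial cell types, with bars for the mean of 2 libraries, circles for library 1 and triangles for library 2. Sox2 peaks in sustentacular cells and Sox9 in basal cells, and Sox17 is at 458 and 461 CPM in Ly6c1-led endothelial cells against 119 and 147 CPM in Selp-led cells, so levels are to be read within a gene.

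The endothelium held 3 types, 412 Ly6c1-led cells, 334 Selp-led cells (Selp is an adhesion molecule of venules) and 36 lymphatic endothelial-like cells (Prox1, Lyve1). Ly6c1-led is a label only, since the leading genes of this type include Car4 and Esm1 but not Ly6c1. Sox17 was at 458 and 461 CPM in Ly6c1-led, 119 and 147 CPM in Selp-led and 44.4 and 22.7 CPM in lymphatic cells. Sox7 was at 33.97 and 50 CPM in Ly6c1-led, 86.1 and 115 CPM in Selp-led and 8.88 and 17.01 CPM in lymphatic cells. Sox18 was at 147 and 214 CPM in Ly6c1-led, 86.1 and 99.8 CPM in Selp-led and 186 and 261 CPM in lymphatic cells. Each gene thus had its own order: Sox17 was highest in Ly6c1-led, Sox7 in Selp-led and Sox18 in lymphatic cells, the last overlapping the Ly6c1-led libraries. Of the 67 lymphatic Sox18 UMIs 17 were in 1 cell, so the lead of lymphatic over Ly6c1-led cells is not secure.

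Between Ly6c1-led and Selp-led cells 2 of 8 genes were called (4.93% of all genes). Sox17 was higher by 1.68 ± 0.28 (adjusted p = 0.000215) and Sox7 lower by 1.37 ± 0.32 (adjusted p = 0.00803), while Sox18 was at 0.84 ± 0.26 (adjusted p = 0.0645) and passed with the replicate block (0.85 ± 0.17, adjusted p = 0.000404). In lymphatic cells 2 genes were called against Ly6c1-led cells (4.75%) and 2 against Selp-led cells (4.48%). Sox17 fell in lymphatic cells, with a difference of -4.0007 ± 0.53 from Ly6c1-led (adjusted p = 1.08e-05) and -2.32 ± 0.61 from Selp-led cells (adjusted p = 0.0242). Sox7 fell by 3.10 against Selp-led cells (SE 0.61, adjusted p = 0.00166). Sox18 was higher than in Selp-led cells by 1.06 ± 0.34 (adjusted p = 0.08), called with the block (1.04 ± 0.27, adjusted p = 0.0109), and was within its spread of Ly6c1-led cells (0.22 ± 0.33, adjusted p = 0.973). DESeq2 called none of the Sox17 differences among these types (adjusted p from 0.919 to 1), with SEs above 5 on the log2 scale. Sox4 was higher in lymphatic than in Ly6c1-led cells by 1.36 ± 0.31 (adjusted p = 0.00465), but the 7 UMIs of library 1 gave 62.1 CPM and the 47 of library 2 gave 267 CPM, and without library 2 the difference was -0.18. Of these 54 lymphatic Sox4 UMIs 18 were in 1 cell.

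The share of cells followed the levels. Sox17 was seen in 71.4% of Ly6c1-led cells (exact 95% interval 66.7 to 75.7%), 46.1% of Selp-led (40.7 to 51.6%) and 16.7% of lymphatic cells (6.37 to 32.8%), and after thinning in 63.0%, 27.3% and 13.8%. Macrophage-like cells gave 0.183%. Sox7 was seen in 20.1% of Ly6c1-led, 45.2% of Selp-led and 11.1% of lymphatic cells, and Sox18 in 51.0%, 45.2% and 66.7%. Thinned, the Sox7 shares were 10.9%, 24.6% and 3.45% and the Sox18 shares 35.3%, 20.8% and 58.6%, so the order held for both genes, and no macrophage-like cell held either. Of the 782 endothelial cells 265 held both Sox17 and Sox18 (33.9%, and 14.5% thinned), 189 Sox17 alone and 120 Sox18 alone. By the number of SoxF genes seen, 115 cells held all 3, 239 held 2, 254 held 1 and 174 held none. Sox7 was found with Sox17 in 72 of the 83 Sox7-positive Ly6c1-led cells and in 92 of the 151 Sox7-positive Selp-led cells. Thinned, it was found in 24 of 33 and in 19 of 71 of these, and Sox17 was seen in 61.9% and 27.5% of the thinned cells of each type without Sox7, so in Selp-led cells the pairing was not above the share in cells without Sox7.

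**Figure D4:**
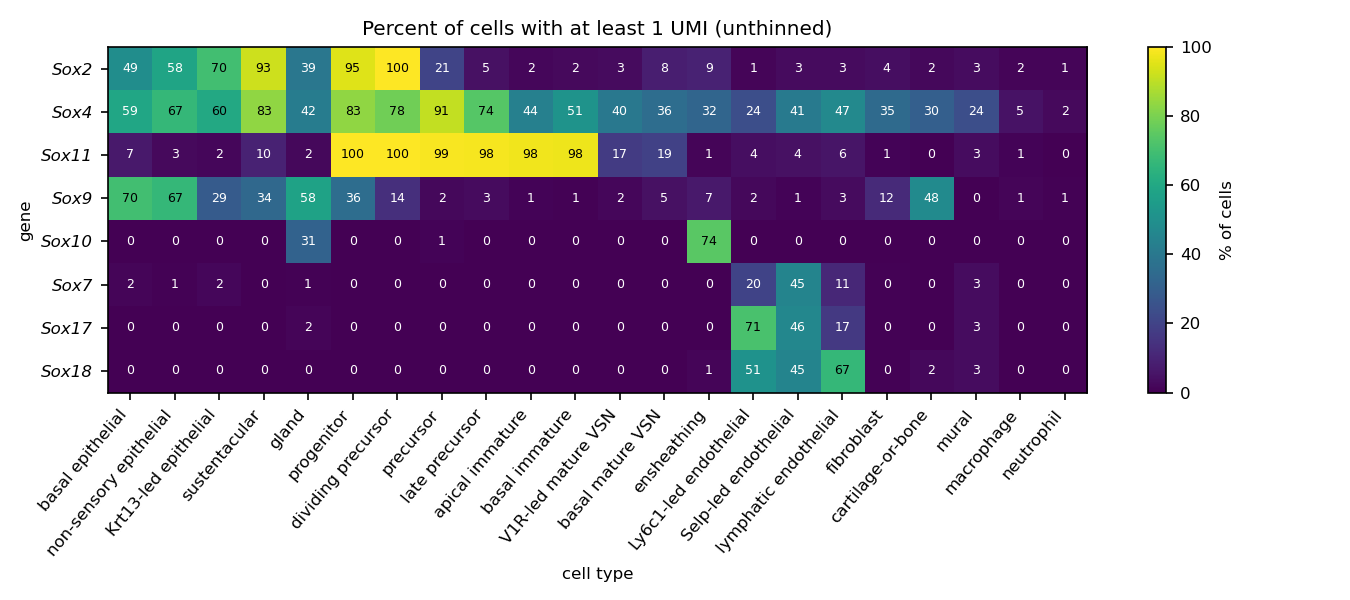
Percent of cells with at least 1 UMI of each Sox gene (colour and rounded number, unthinned) in 20 cell types of the 5 lineages and in macrophage-like and neutrophil-like cells, which serve as background. Sox11 is seen in 97.6% or more of cells in the 6 youngest neural types, Sox10 mainly in ensheathing and gland cells, and the SoxF genes in 11.1% to 71.4% of cells of the endothelial types.

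In the stroma Sox9 was highest in 46 cartilage-or-bone-like cells, at 125 and 205 CPM against 20.7 and 38.6 CPM in 478 fibroblast-like cells. The libraries did not overlap. The difference was 2.14 ± 0.45 (adjusted p = 0.00192), the only call among the 8 genes between these types (4.34% of all genes). A Sox9 UMI was found in 47.8% of cartilage-or-bone-like cells (exact 95% interval 32.9 to 63.1%) and 11.9% of fibroblast-like cells (9.16 to 15.2%). Mural-like cells had no Sox9 UMI, with 3 counts in 29 cells setting a limit of 10.3%, and the fit with the replicate block called the difference from fibroblast-like cells (adjusted p = 0.041, against 0.0889 without it).

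Genes known to act with or downstream of each group were followed as lists, without a test of the list. Of 10 vascular genes linked to SoxF factors all were highest, among the lineages, in endothelial cells. All 10 were called higher there than in stromal cells, a comparison in which 31.9% of all genes were called in either direction. Their median difference from stromal cells was 5.71, against 0 over all genes. Tek, a receptor of angiopoietins, was at 174 and 164 CPM in endothelial cells (7.17 ± 0.33 over stromal cells, adjusted p = 2.5e-09). Notch4 was the one that did not pass against the lineage next in order, the ensheathing one (1.94 ± 0.87, adjusted p = 0.15). By cell type Dll4 was highest in precursor-like cells (47.6 CPM) and the others in endothelial types. Of 6 glial genes linked to SoxE factors all were highest by CPM, among the lineages, in ensheathing cells. All 6 were called higher there than in stromal cells (15.2% of all genes called in either direction, median 4.52, against -0.16 over all genes). Erbb3, Pmp22, Mbp and Foxd3 also passed against the next lineage, whereas Ngfr and Ednrb had fitted differences of -0.38 ± 0.34 and -0.12 ± 0.37 against the next lineage. By cell type Ngfr was highest in basal-like cells (61.2 CPM), Ednrb in sustentacular-like cells (255 CPM) and the others in ensheathing cells. Of 4 SoxC targets Tubb3, Dcx and Stmn1 were highest in neural cells, and 3 were called higher and 1, Tead2, lower than in endothelial cells (59.1% of all genes called in either direction). Their median was 5.73 above endothelial cells, against 0.19 over all genes. Among the SoxB1 partners Pax6 and Hes1 were highest in epithelial cells and Id4 in neural cells, each called against the next lineage, while Hes5 and Nes were not. By cell type Pax6 was highest in dividing precursor-like cells (165 CPM) and Hes1 in cartilage-or-bone-like cells (825 CPM). Of 5 matrix genes linked to Sox9, Mia was highest in stromal cells and Col27a1 and Matn4 in ensheathing cells with a call, and for 4 of the 5 the highest cell type was the cartilage-or-bone-like one. Their median in epithelial cells, where Sox9 was highest, was 5.70 below that in stromal cells, against 0.10 above over all genes. All 25 genes of the SoxC, SoxE, SoxF and Sox9 lists differed among the lineages in the joint test, against 79.5% of all genes.

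The pattern of each gene over 23 cell types was compared with that of 14229 other genes, by Pearson's r of log2(CPM + 1), as a description in which neighbouring types share libraries and depth. Closest to Sox2 was Six3os1 (r = 0.92), to Sox4 Llgl1 (r = 0.88), to Sox9 Six2 (r = 0.94), to Sox10 Slitrk6 (r = 0.88) and to Sox11 Wdr66 (r = 0.97). Tek was closest to both Sox7 (r = 0.96) and Sox17 (r = 0.97), and Robo4 to Sox18 (r = 0.97). Among the 8 genes themselves the SoxF genes were closest to each other, with r from 0.89 to 0.94, and Sox4 was closest to Sox11 (r = 0.62). Sox2 and Sox9, both high in epithelial types, had r = 0.59 and Sox9 and Sox10 had r = 0.04.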

How the data were processed

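The authors deposited UMI counts per gene and cell barcode, made with Cell Ranger 4.0.0 on mm10 from 10x 3′ v3.1 libraries and merged by aggr. The depth setting of that step is unknown here. Cells needed 200 to 9000 genes, with mitochondrial UMIs no higher than 5%, and reading that limit as under 5% leaves 10582 cells, the number the study states. Genes in 3 or more cells were kept (21823). No cell annotation was used. Cells were clustered in Seurat 5.3.0 (2000 variable genes, 30 components, resolution 0.8) after 60 Sox and listed genes were removed, and neural and stromal cells were clustered again. Clusters were named from at least 3 listed markers that were 4-fold above the other cells, but not every cluster that met this was named. The named genes were the 8 Sox genes with every neighbour in the order of their levels, the list genes by their counts, and the genes with the most similar pattern. Scrublet called 113 and 90 kept cells doublets, which stayed in and were left out in an alternative. The libraries shared 33 barcode sequences, 3 of them kept.

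Counts were summed per library and group, from at least 10 cells, and fitted with edgeR 4.0.16 (quasi-likelihood test, TMM scaling, Benjamini-Hochberg adjustment, genes with 10 or more UMIs). DESeq2 1.42.0 was an alternative. The same library number marks the same capture, so the numbers pair the sums. Deviations of same-numbered sums correlated between -0.02 and 0.11 over lineages and between -0.06 and 0.17 over cell types. Libraries of a group differed by more than sampling noise (chi-square per degree of freedom 1.64 to 12.9). The fit was tested on simulated data, where with a dispersion of its own for each gene false calls exceeded the threshold in the lineage fit, so adjusted p-values near 0.05 are weak. Shares were also taken after thinning to 3000 UMIs, which left out 3006 cells. The 8 genes and the lists were chosen with earlier results of these data known, and the naming threshold, the second clustering and the subtype comparisons after the clusters were seen. Some listed genes are not reported here.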

Additional observations from a re-analysis of the deposited data

Results flagged for a closer look

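The 2034 cells of the 10 clusters that were left unnamed entered no comparison, but Sox genes were well above background in them. Sox2 was at 170 CPM (exact 95% Poisson interval 164 to 177), against 3.93 CPM in macrophage-like cells. Sox4 was at 122 CPM (117 to 128), against 15.9 CPM. Sox11 was at 62.2 CPM (58.3 to 66.3), against 2.53 CPM, and Sox9 at 44.5 CPM (41.3 to 48.0), against 3.79 CPM. The intervals cover counting error only. These cells held 35.0% of all Sox2, 19.8% of all Sox4, 9.70% of all Sox11 and 9.36% of all Sox9 UMIs of the cells that passed the filters.

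The Sox genes were unevenly spread over these clusters. A cluster of 592 cells at a median of 1123.5 UMIs, whose 10 leading genes include Trpm5 and Gnat3 of taste-type signalling and the factor Pou2f3, had 267 CPM of Sox2, 181 CPM of Sox4, 143 CPM of Sox11 and 90.5 CPM of Sox9. A cluster of 150 cells led by cilium genes had 279 CPM of Sox2 and 161 CPM of Sox9. A cluster of 53 cells, with 3 of 5 immature-neuron markers raised, had 906 CPM of Sox11. Of 117 cells in a further cluster, 109 were from library 1, and its Sox17 level was 44.5 CPM.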

How the results depend on the processing

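Under the alternative settings 118 single tests of the Sox genes were followed. These were all 78 called tests and the uncalled ones with at least 10 UMIs of the gene in both groups, so 78 of 118 is no rate of calling. Of 810 values under the alternative settings 720 kept their direction and side of the threshold, 37 became called, 38 lost their call and 15 turned in direction. The replicate block kept 106 and made 12 into calls. It lost none. The causes of the changes below were not tested.

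Values turned as follows. Without TMM scaling Sox11 was at -0.11 in epithelial against endothelial and 0.16 in sustentacular-like against basal-like cells, and Sox4 at 0.089 in precursor-like against progenitor-like cells. At a mitochondrial limit of 10% Sox11 was at -0.76 in epithelial and -0.93 in endothelial against stromal cells and 0.14 in sustentacular-like against basal-like cells, Sox17 at -0.53 in the latter, Sox4 at 0.037 in gland-like against basal-like cells and Sox18 at -3.25 in mural-like against fibroblast-like cells. Without doublets Sox9 was at 0.24 in neural against endothelial cells. In thinned cells it was at 0.13 there, Sox4 at 0.44 in precursor-like against progenitor-like and -0.23 in basal against apical immature-like cells, and Sox11 at 0.14 in sustentacular-like against basal-like and 0.050 in late precursor-like against precursor-like cells. Leaving out a library leaves 1 sum a group and no test. Of 236 such values 179 stayed within the spread, 54 moved and 3 turned: Sox9 in neural against ensheathing cells ranged from -3.02 to 3.95, Sox18 in mural-like against fibroblast-like cells from -0.49 to 5.24 and Sox4 in lymphatic against Ly6c1-led cells from -0.18 to 1.65.

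Among the subtypes the Sox genes gave 22 calls with the replicate block against 12 without it, and 10 at the 10% limit against 6 over the same comparisons. Over all genes the calls among subtypes were 13878 with the block against 9552, 11337 at the 10% limit against 7087, and 3573 thinned against 7945. Among cell types they were 11078 thinned against 21559. In single comparisons calls over all genes moved by more than 1.5-fold as follows. Thinning took them from 3971 to 2522 in epithelial against ensheathing, 3462 to 2051 in ensheathing against endothelial, 2643 to 1615 in ensheathing against stromal, 2420 to 547 in precursor-like against progenitor-like, 2692 to 1325 in immature-like against precursor-like, 5208 to 3296 in mature against immature-like, 5247 to 3122 in sustentacular-like and 5992 to 2788 in gland-like against basal-like, 858 to 551 in Ly6c1-led against Selp-led, 539 to 263 between immature types, 1388 to 532 between mature types, 558 to 232 in late against earlier precursor-like, 900 to 186 in dividing precursor-like against progenitor-like, 820 to 240 in precursor-like against dividing precursor-like, 756 to 472 in cartilage-or-bone-like against fibroblast-like, 863 to 539 in non-sensory-like and 1102 to 511 in Krt13-led against basal-like cells and 161 to 47 for the difference in maturation. The 10% limit gave 6266 in epithelial and 4365 in stromal against ensheathing, 4385 against 1204 in mural-like and 1421 in cartilage-or-bone-like against fibroblast-like and 2926 in non-sensory-like against basal-like cells. For mural-like cells DESeq2 gave 764 and scaling without TMM 611, and DESeq2 gave 339 for maturation. The block gave 1305 between Ly6c1-led and Selp-led cells, 2270 between mature types, 1634 in non-sensory-like and 1678 in Krt13-led against basal-like cells and 419 for maturation.

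At the 10% limit Sox2 was at 477 CPM in sustentacular-like and 405 CPM in progenitor-like cells and Sox4 at 431 CPM in precursor-like cells. Without doublets Sox17 was at 466 CPM in Ly6c1-led cells. In thinned cells Sox2 was at 475 CPM in progenitor-like, Sox4 at 461 CPM in precursor-like, Sox10 at 32.8 CPM in gland-like, Sox17 at 493 CPM in Ly6c1-led and Sox18 at 384 CPM in lymphatic cells. Thinned shares were 69.1% and 73.8% for Sox2 in sustentacular-like and progenitor-like cells, 74.7% for Sox4 in precursor-like, 49.1% for Sox9 in basal-like, 58.3% and 8.28% for Sox10 in ensheathing and gland-like, 24.6% for Sox7 in Selp-led and 63.0% for Sox17 in Ly6c1-led cells. Thinned shares with both genes were 14.5% for Sox17 and Sox18, 9.98% for Sox2 and Sox9, 74.7% for Sox4 and Sox11 and 45.7% for Sox2 and Sox11.

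Mural-like cells could not be compared without doublets, at resolution 0.5 or thinned, and some endothelial types not at the 10% limit. Depth limits what a count of 0 shows in the 74 ensheathing and 36 lymphatic cells.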

Other observations

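Of the 12 other genes of the Sox and Sry family in the files, 9 had enough UMIs to be tested and 7 of the 9 differed among the lineages, as did 79.5% of all genes. Sox21, a SoxB2 factor, was highest in epithelial cells (mean 21.3 CPM over the libraries, 3.16 ± 0.33 above neural cells, adjusted p = 1.14e-06) and reached 71.3 CPM in sustentacular-like cells, the type with the highest Sox2. Sox15 was highest in epithelial cells too (4.98 CPM, 5.11 ± 0.84 above endothelial cells, adjusted p = 0.000323), and its highest type was the Krt13-led one at 20.1 CPM. Sox5, a SoxD factor, was highest in ensheathing cells (69.6 CPM, 1.96 ± 0.34 above neural cells, adjusted p = 0.000389), and Sox13 in endothelial cells (22.7 CPM, 1.50 ± 0.29 above epithelial cells, adjusted p = 0.000804). Sox6 (28.1 CPM) and Sox8 (20.3 CPM) were highest in ensheathing cells without a call over the next lineage (adjusted p = 0.0736 and 0.0729). The adjusted p-values are from edgeR's quasi-likelihood test over all genes.

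Dendritic-like cells were the immune type with the most Sox9, at 15.6 CPM in library 1 and 26.9 CPM in library 2, with 63 UMIs in 17 cells and 11 of them in 1 cell. Their Sox4 was at 18 and 25.4 CPM and their Sox2 at 12 and 10.9 CPM, and 5.68% of them were called doublets.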
